A study of Mus musculus with 39 samples.

Results

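The 10 genes described here (Slc1a3, Slc1a2, Apoe, Ppap2b, Aqp4, Gja1, Aldoc, Glul, Gfap and Bcan) are a list of genes typical of astrocytes, taken out of the 24421 genes of each RNA-seq table. They were chosen by their known role and with the normalized read counts, FANS against INTACT, of these same libraries in view. Their differences between the techniques are therefore given as a description, and their calls and counts as no more than that. All 10 had a mean normalized read count of at least 5 in each table and so passed the filter on low values.

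Astrocytes are glial cells that wrap synapses and blood vessels. They remove glutamate from the synaptic cleft and return it to neurons as glutamine, supply cholesterol in lipoprotein particles, move water at their endfeet, and are joined into networks by gap junctions. The 10 genes take part in these tasks, in glycolysis and lipid phosphate turnover, or in the cytoskeleton and extracellular matrix, and many of their transcripts are widely used to recognise astrocytes in brain tissue.

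The nuclei were not meant to be those of astrocytes. They came from the neocortex of young adult male and female Arc-creERT2 (TG/WT) mice that also had 1 or 2 copies (M/WT or M/M) of R26-CAG-Sun1-sfGFP-Myc, in which tamoxifen given before a social interaction test labels the nuclear membrane of Arc-expressing cells, likely for the most part excitatory neurons, with sfGFP. All groups shared this genotype and treatment, and differed in how sfGFP-positive nuclei were collected: by flow sorting (FANS) or by capture on beads with an antibody against GFP (INTACT). Nuclear RNA was sequenced in 3 batches, each from a biological source of its own, with 4 FANS and 4 INTACT libraries in batch 1, 7 and 4 in batch 2, and 7 and 5 in batch 3, and batch 1 held RNA of higher integrity than the others. ATAC-seq peak lists were made for 3 technical replicates of each technique from 1 source. Batch, biological source and RNA integrity cannot be told apart, and the spread between libraries may be technical.

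The libraries held between 4205667 and 11028697 reads assigned to genes. In batch 1 the INTACT libraries were deeper than the FANS libraries (8621152 to 11028697 against 4853224 to 6066760 reads), and a smaller share of their reads fell outside the counted features (73.6% to 75.3% against 81.9% to 84.3%). The same share was 79.8% to 81.4% in INTACT and 81.9% to 84.0% in FANS in batch 2, and 84.4% to 85.5% against 82.6% to 87.5% in batch 3. The part of these library differences in the values below was not tested. Of 10 markers of excitatory neurons, 9 had median levels per length above those of at least 82.0% of the genes tested in every batch, among them Slc17a7, the vesicular glutamate transporter of these cells. Emx1, a transcription factor of the cortex, stood above 46.4%, 50.2% and 56.6% in batches 1, 2 and 3.

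Per length, the astrocyte genes spread over a wide range of levels. Levels are given as RPKM computed here (reads per kilobase of exon, scaled to the gene reads of the library), which is the scale used to compare genes with each other unless another is named. Slc1a2, which encodes the main glutamate transporter of astrocytes and whose mRNA is also known from some neurons, stood far above the rest with median levels of 78.9, 77.8 and 98.8 in batches 1, 2 and 3. Its range over libraries did not meet that of Glul, the next gene, in any batch. Glul, glutamine synthetase, had median levels of 15.1, 12.2 and 12.1, and Apoe had 11.7, 12.1 and 6.92. The ranges of Glul and Apoe overlapped in batches 1 and 2 and were apart in batch 3.

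Below them came Bcan (median levels of 4.97, 5.40 and 5.37), Aldoc (3.90, 2.96 and 4.49), Slc1a3 (2.82, 1.60 and 1.48), Ppap2b (2.67, 1.95 and 1.33) and Gja1 (1.67, 0.795 and 0.789). In batch 2 Ppap2b came before Slc1a3. Each neighbour in the order of its batch overlapped with the next, except Bcan and Aldoc in batch 2 and Aldoc and Slc1a3 in batch 3. Aqp4 (0.542, 0.383 and 0.468) and Gfap (0.539, 0.304 and 0.410) were the lowest and overlapped in every batch. The median of all genes tested was 7.73, 7.95 and 7.91. Of the 10 astrocyte genes, 3 lay above it in batches 1 and 2 (Slc1a2, Glul and Apoe) and 2 in batch 3 (Slc1a2 and Glul). Per kilobase of gene span instead of exon, 5 lay above the median in each batch. Gfap, the filament protein of reactive astrocytes, had a median level higher than only 6.09%, 1.81% and 2.43% of the genes tested.

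The technique difference was wide in batch 1. Every astrocyte gene had a positive log2 fold change of INTACT over FANS there, with a median of 1.06 against 0.01 over all genes tested. A gene was called when its limma test passed an adjusted p threshold of 0.05 over all genes and the change was at least 1.5-fold. In batch 1, 7 of the 10 genes were called higher in INTACT, where 4.03% of all 15114 genes tested were called higher and 3.94% lower, and none of the 10 was called lower. In 9 of the 10 every INTACT library lay above every FANS library, which was the case for 17.1% of all genes. Since the genes were chosen with this contrast known, nothing is read from these counts.

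In batch 2, all 10 log2 fold changes were again above 0 but smaller, with a median of 0.54 against 0.00 over all genes. Slc1a3 and Bcan were called higher, where 0.0941% of all 14876 genes were called higher and 0.0336% lower. The techniques did not overlap for 3 genes, Slc1a3, Apoe and Bcan, against 1.59% of all genes. Without INTACT replicate 1 or INTACT replicate 2, 1 gene stayed called, Bcan, while the log2 fold change of Slc1a3 was 0.97 or 0.80.

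In batch 3, 5 of the 10 log2 fold changes were above 0 and the median was 0.02, against 0.00 over all genes. None of the 10 was called in either direction by limma, edgeR or DESeq2, while 2 (Aldoc and Bcan) had an unadjusted p under 0.05 with each, as had 13.7% of all genes with limma, and limma called 0.0139% of all 14440 genes higher and 0.346% lower. INTACT lay above FANS without overlap for 1 gene, Bcan, against 0.997% of all genes. Whether the technique differences of the batches differ from each other was not tested.

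**Figure D1:**
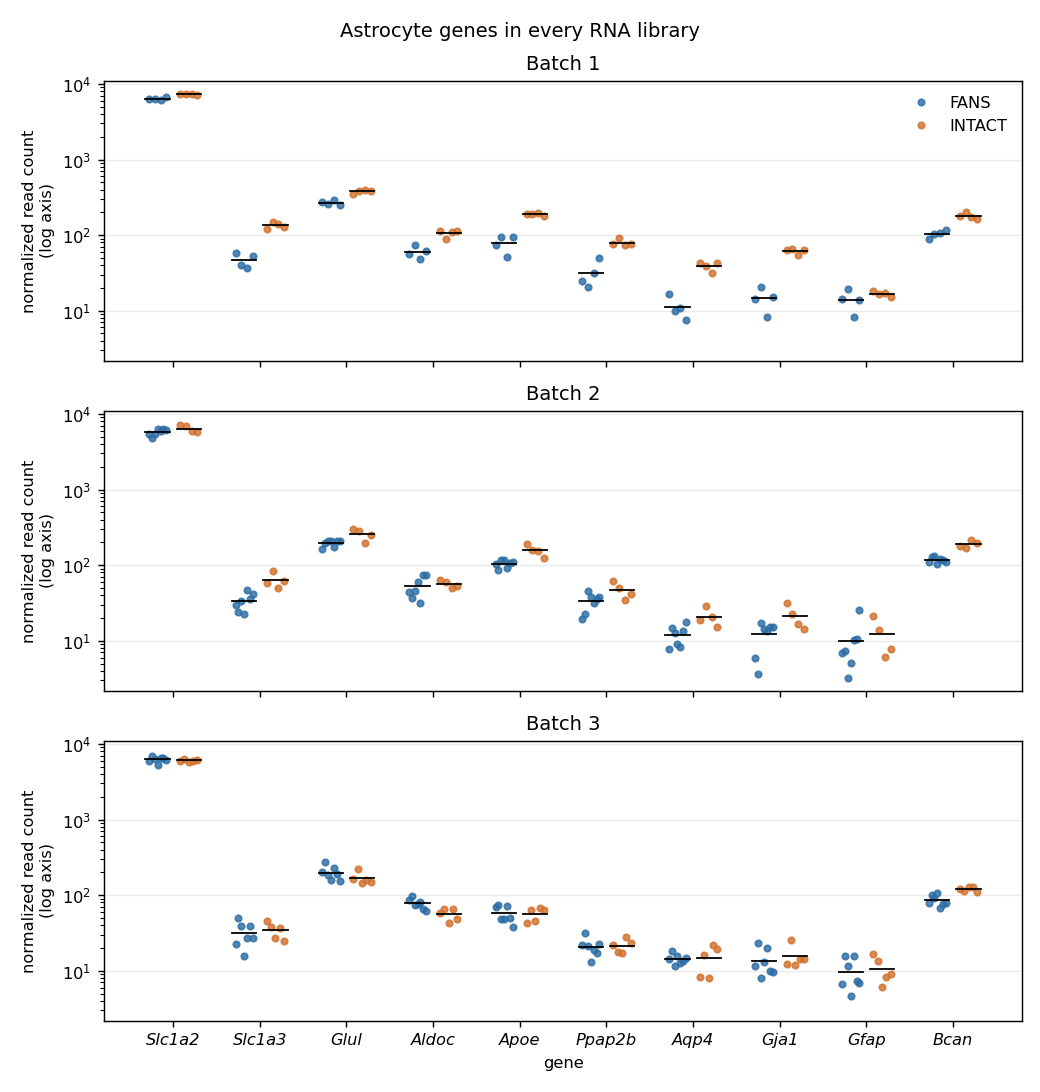
Normalized read counts (log axis) of the 10 astrocyte genes in every RNA library, with 1 panel per batch. Points are libraries, blue for FANS and orange for INTACT, and black bars are group means; in batch 1 the INTACT points lie above the FANS points for every gene but Gfap, and in batch 3 only for Bcan.

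**Figure D2:**
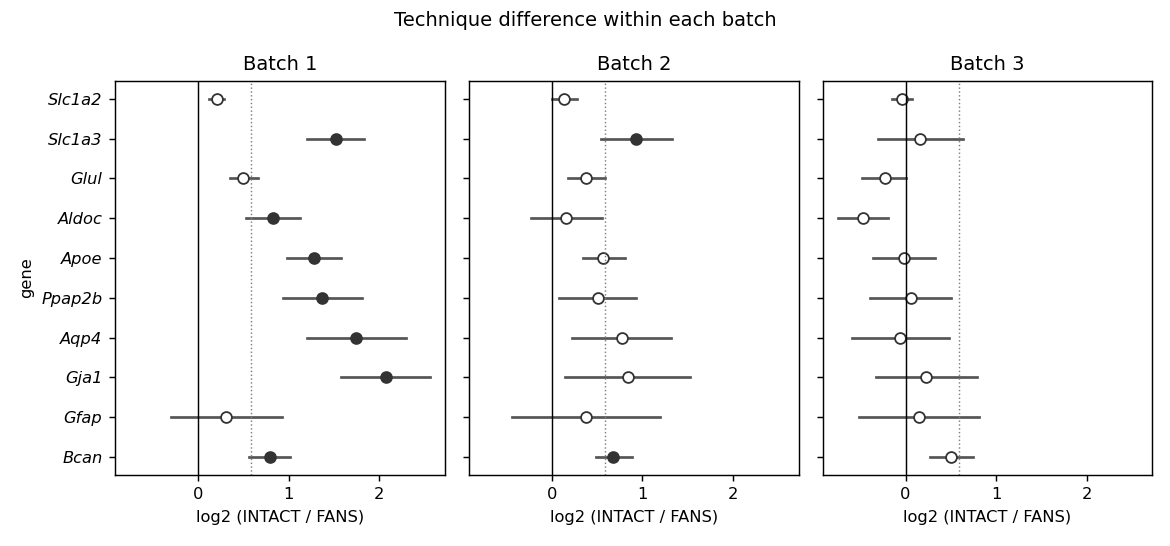
Log2 ratio of INTACT over FANS for each gene (circles) with its 95% interval from the limma fit (lines), 1 panel per batch. Filled circles were called higher in INTACT (7 genes in batch 1, 2 in batch 2, none in batch 3), and the dotted line marks a 1.5-fold difference.

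Of the 2 glutamate transporters, Slc1a3 (GLAST, chr15:8634124-8710807, minus strand) differed more than Slc1a2. In batch 1 its normalized read counts were 57.9, 40.5, 36.8 and 53.5 in FANS and 119, 151, 139 and 130 in INTACT. The techniques were apart, with means of 47.2 ± 10.1 and 135 ± 13.3 (SD, n = 4 each) and a log2 fold change of 1.52 (SE 0.151). In batch 2 the 7 FANS libraries ran from 22.4 to 46.3 with a median of 33.2, and the INTACT libraries held 58.1, 83.6, 50.4 and 61.6. The lowest INTACT library was again above the highest FANS library, and the log2 fold change was 0.93 (SE 0.192), called by limma and edgeR but not by DESeq2. In batch 3 the FANS libraries covered 15.7 to 50.5 (median 27.3) and the INTACT libraries read 45.3, 38.0, 27.1, 37.0 and 24.4. All 5 INTACT values fell inside the FANS range, and the log2 fold change was 0.16 (95% interval -0.30 to 0.63).

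Slc1a2 (chr2:102658689-102790784, plus strand) was the most deeply counted of the 10 genes and its relative difference was small. Batch 1 gave 6338, 6329, 6093 and 6746 normalized counts in FANS and 7413, 7350, 7383 and 7240 in INTACT, without overlap. The log2 fold change of 0.21 (SE 0.0399) passed the adjusted p threshold and was under 1.5-fold. In batch 2 FANS ran from 4830 to 6357 (median 5942) and INTACT read 7041, 6831, 5876 and 5758, so that 2 of 4 INTACT libraries were above all FANS libraries. In batch 3 FANS ran from 5344 to 6939 (median 6288) and INTACT from 5809 to 6345, inside the FANS range. The log2 fold changes were 0.14 (SE 0.0681) and -0.04 (SE 0.0536). The variance of its counts in batch 1 was 7.90 times that of counting error alone in FANS. In INTACT it was close to counting error, at 1.11 times. The FANS and INTACT values were 56.9 and 65.8 times in batch 2, and 42.7 and 5.96 times in batch 3.

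Glul (chr1:153899929-153909723, plus strand) encodes glutamine synthetase, which turns glutamate into glutamine inside the astrocyte. Its span also holds the microRNA gene Mir8114. Batch 1 gave 273, 261, 290 and 252 in FANS and 351, 385, 401 and 389 in INTACT. The groups were apart, but the log2 fold change of 0.50 (SE 0.0745) stayed under 1.5-fold and Glul was not called. In batch 2 the FANS libraries reached from 164 to 211 (median 210), and the INTACT libraries read 302, 284, 198 and 252. Only INTACT replicate 3 fell inside the FANS range there, with a log2 fold change of 0.38 (SE 0.100). In batch 3 FANS reached from 152 to 276 (median 191) and INTACT read 163, 221, 147, 158 and 150. Here 1 of 5 INTACT libraries was above the FANS median, with a log2 fold change of -0.23 (95% interval -0.48 to 0.01).

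Aldoc (chr11:78323073-78327781, plus strand) encodes the brain form of the glycolytic enzyme aldolase, abundant in astrocytes. Batch 1 gave 56.6, 74.8, 47.7 and 61.1 in FANS and 112, 90.2, 110 and 114 in INTACT, apart from each other, with a log2 fold change of 0.83 (SE 0.147). In batch 2 the 4 INTACT values of 63.5, 59.5, 49.4 and 52.8 lay within the FANS range of 31.9 to 74.7 (median 44.9), and the log2 fold change was 0.16 (SE 0.191). In batch 3 the FANS libraries ran from 61.2 to 97.6 (median 76.4) and the INTACT libraries read 57.6, 65.8, 43.1, 64.7 and 48.7. No INTACT library reached the FANS median. The log2 fold change was -0.47 (95% interval -0.75 to -0.19), the lowest of the 10 genes, and did not pass the adjusted threshold with limma or edgeR. With DESeq2 it passed that threshold but was under 1.5-fold.

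Apoe (chr7:19696244-19699188, minus strand) encodes apolipoprotein E, the main apolipoprotein of the brain. In batch 1 the FANS libraries read 74.6, 94.4, 51.8 and 94.8 and the INTACT libraries 189, 190, 196 and 177. The highest FANS value was far under the lowest INTACT value, and the log2 fold change was 1.28 (SE 0.144). In batch 2 FANS ran from 87.4 to 118 (median 106) and INTACT read 191, 157, 156 and 124. The groups did not overlap, and the log2 fold change of 0.57 (SE 0.114) passed the adjusted p threshold but was just under 1.5-fold. It was called by edgeR and by DESeq2 on the whole reads, both with 0.59. In batch 3 FANS ran from 37.9 to 75.0 (median 50.4) and the INTACT values of 42.2, 63.8, 45.1, 66.7 and 62.9 all fell within that range, with a log2 fold change of -0.02 (95% interval -0.36 to 0.32).

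Ppap2b (now Plpp3, chr4:105157347-105232767, plus strand) encodes a phosphatase that takes apart lipid phosphates at the cell surface. Batch 1 gave 24.4, 20.8, 31.3 and 50.4 in FANS and 77.0, 91.8, 73.7 and 76.0 in INTACT. FANS replicate 4 stood above the other FANS libraries but under every INTACT library, and the log2 fold change was 1.37 (SE 0.210). In batch 2 FANS ran from 19.6 to 46.0 (median 35.4) and INTACT read 60.8, 49.2, 35.0 and 41.8, with 2 INTACT libraries above all FANS libraries. In batch 3 FANS ran from 12.9 to 31.4 (median 21.4) and INTACT from 17.1 to 27.7. The log2 fold changes were 0.51 (SE 0.207) and 0.06 (SE 0.217).

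Aqp4 (chr18:15389394-15410982, minus strand) and Gja1 (chr10:56377300-56390419, plus strand) had the largest log2 fold changes of the 10 genes in batch 1, on few reads. Aqp4 is the water channel of astrocyte endfeet. Its normalized counts in batch 1 were 16.7, 9.81, 10.9 and 7.64 in FANS, from 5 to 13 reads, and 43.3, 39.0, 31.2 and 42.3 in INTACT, from 47 to 64 reads. The groups were apart, with a log2 fold change of 1.74 (SE 0.264). In batch 2 FANS ran from 7.85 to 17.8 (median 12.8) and INTACT read 18.8, 28.6, 20.6 and 15.4, so 3 of 4 INTACT libraries were above every FANS library. In batch 3 FANS ran from 11.6 to 18.3 (median 14.2), while INTACT read 8.23, 16.4, 8.02, 21.6 and 19.3. These INTACT libraries fell on both sides of the FANS range, with 2 above and 2 below it. The log2 fold changes were 0.77 (SE 0.269) and -0.06 (SE 0.262), and with edgeR and DESeq2 the second was 0.03.

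Gja1 encodes connexin 43, the main gap junction protein of astrocytes. Batch 1 gave 14.2, 20.8, 8.18 and 15.3 in FANS and 63.1, 65.8, 55.1 and 62.8 in INTACT, a ratio of means of 4.22 and a log2 fold change of 2.07 (SE 0.239). Of the 10 genes this was the widest gap. In batch 2 FANS ran from 3.64 to 17.1 (median 14.2) and INTACT read 31.3, 22.9, 16.5 and 14.3, with all 4 above the FANS median and 2 above its highest library. In batch 3 FANS ran from 8.03 to 23.5 (median 11.4), and INTACT read 12.3, 25.7, 12.0, 14.4 and 14.2. The log2 fold changes were 0.84 (SE 0.336) and 0.23 (SE 0.276).

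Gfap (chr11:102887336-102897200, minus strand) was the only gene whose groups overlapped in all 3 batches. In batch 1 FANS read 14.2, 19.6, 8.18 and 13.8 and INTACT 18.2, 16.8, 17.3 and 15.2. In batch 2 FANS ran from 3.21 to 25.4 (median 7.28) and INTACT from 6.17 to 21.5, and in batch 3 FANS ran from 4.60 to 15.7 (median 7.38) and INTACT from 6.02 to 16.5. The log2 fold changes were 0.31 (SE 0.299), 0.38 (SE 0.399) and 0.15 (SE 0.322). With between 3 and 30 reads a library, the 95% interval of the log2 fold change held both 0 and a 1.5-fold difference in every batch (-0.30 to 0.93, -0.44 to 1.19 and -0.51 to 0.81).

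Bcan (chr3:87987531-88000356, minus strand) encodes brevican, a proteoglycan of the matrix around synapses that astrocytes secrete and that oligodendrocyte precursors and some neurons also make. Batch 1 gave 88.8, 104, 106 and 116 in FANS and 180, 202, 176 and 162 in INTACT. Batch 2 gave 105 to 132 in FANS (median 117) and 179, 171, 213 and 194 in INTACT, and batch 3 gave 67.1 to 106 in FANS (median 77.8) and 121, 112, 130, 127 and 111 in INTACT. In each of the 3 batches every INTACT library was above every FANS library, which held for no other gene of the 10. The log2 fold changes were 0.79 (SE 0.111), 0.68 (SE 0.0967) and 0.50 (SE 0.114), and the last passed the adjusted p threshold without reaching 1.5-fold.

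For astrocyte genes outside the 10 the median log2 fold change was also largest in batch 1. The sets of tested genes changed between batches, and whether the batches differ was not tested. Of 54 further astrocyte genes, 53 could be tested in batch 1. Their median log2 fold change was 0.77, against 0.01 over all genes tested, and 45 were above 0. Aldh1l1 (0.25), Sox9 (0.18), Slc4a4 (-0.09) and Slc25a18 (-0.29) were among the genes not called. In batch 1, 24 were called higher and none lower, where 4.03% of all genes tested were called higher and 3.94% lower. Among them were Clu, an apolipoprotein also called clusterin (228 ± 14.8 in FANS, 405 ± 17.4 in INTACT, SD, n = 4 each), Cst3, the protease inhibitor cystatin C (112 ± 29.6 and 227 ± 8.49), and Sparcl1, the synapse-promoting protein hevin (1041 ± 137 and 1864 ± 90.3). They also included Slco1c1, Fgfr3, Gjb6, Ndrg2, Acsbg1, Ntsr2, Gpr37l1, Htra1, Mt1, Mfge8, Hepacam, Id4, F3, Dio2, Itih3, Slc39a12, Cbs, Pla2g7, Tril and Ednrb, with log2 fold changes from 0.63 for Hepacam to 2.73 for Tril. None of the 42 tested in batch 2 and of the 41 tested in batch 3 was called by limma, edgeR or DESeq2, and the median log2 fold changes were 0.13 and 0.05. By limma, 9 and 5 of them had an unadjusted p under 0.05, where 15.2% and 13.7% of all genes had. Clu, Cst3 and Sparcl1 had log2 fold changes of 0.07, 0.12 and 0.15 in batch 2 and of -0.21, 0.01 and -0.24 in batch 3.

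Genes that work in the same pathways as the 10 were counted in the same way in batch 1, where 4.03% of all genes tested were called higher. Of 8 genes of glutamate and glutamine handling, 1 was called higher, Slc38a3, the transporter that lets glutamine leave astrocytes (log2 fold change 1.05), and the median was 0.19. Of 10 tested genes of lipoprotein and lipid phosphate handling, 1 was called higher, the apolipoprotein gene Apod (0.74), with a median of 0.35. Of 10 glycolysis genes, 1 was called higher, Aldoa, the widely expressed aldolase (0.60), with a median of 0.33. Of 7 tested matrix partners of Bcan, the link proteins Hapln1 (1.61) and Hapln2 (0.60) were called higher, with a median of 0.35. No gene of these lists was called lower in batch 1, and none was called in batches 2 and 3 by limma, edgeR or DESeq2. By limma, between 1 and 5 genes of each list had an unadjusted p under 0.05 in those batches.

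No endfoot or gap junction partner was called in any batch by limma, edgeR or DESeq2. All 5 tested in batch 1 had an unadjusted p under 0.05 by limma, as had 44.5% of all genes there. The widest log2 fold changes there were 0.57 for Kcnj10, the potassium channel at the endfeet, and 0.40 for Dag1, dystroglycan, and the median was -0.34. Of the other intermediate filaments, Synm, synemin, read 119 ± 11.6 in FANS and 120 ± 15.8 in INTACT (SD, n = 4 each), while Vim, vimentin, was too low to test in batch 1 (3.86 ± 2.74 and 5.61 ± 3.79).

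Markers of other cells moved beside the astrocyte genes. In batch 1, 8 of 13 genes of mature oligodendrocytes were called higher in INTACT, where 4.03% of all genes tested were. The 8 included Mog, Mag, Cnp, Cldn11, Mal, Opalin and Tspan2, and the median log2 fold change of the list was 0.62. The sum of these 13 genes ran from 7385 to 9038 normalized counts in FANS, while INTACT libraries held 11709 to 12334. In batch 2, 5 were called higher (among them Cldn11, Mal, Ugt8a and Tspan2; 3 by edgeR or DESeq2), with a median of 0.53 and sums of 7906 to 15235 and 15043 to 18229. In batch 3 none was called by any of the 3 tools (3 had an unadjusted p under 0.05 by limma), the median was 0.23, and the sums were 1997 to 2699 and 2436 to 3052. Of 8 genes of the oligodendrocyte lineage and precursors, Pdgfra, the receptor of the precursors, and Olig1, a transcription factor of the lineage, were called higher in batch 1 (log2 fold changes of 1.90 and 0.61) and Olig1 in batch 2 (0.74, not by DESeq2). The sums over the lineage list, FANS before INTACT, were 156 to 219 against 219 to 245 in batch 1, 148 to 263 against 263 to 318 in batch 2, and 42.3 to 81.1 against 65.9 to 79.2 in batch 3.

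Markers of inhibitory neurons were called higher in batch 1 for 4 of 9 tested, where 4.03% of all genes were. They were Slc32a1 (0.68), Sst (1.45), Vip (1.02, not called by DESeq2) and Npy (2.20). The list sums were 341 to 431 (FANS) against 521 to 561 (INTACT). In batches 2 and 3 none was called by any tool, 1 in each had an unadjusted p under 0.05, and the medians were 0.07 and -0.22. Of 14 genes on each list, 7 of microglia and 6 of vascular cells could be tested in batch 1, and the rest were too low. The called genes of these lists went both ways. P2ry12, a receptor of resting microglia, was called lower (-1.01) and Ctss, a microglial protease, higher (1.37). Tek, the endothelial angiopoietin receptor, was called lower (-0.73), and Pdgfrb and Vtn, which are typical of pericytes, were called higher (0.81 and 1.42, Vtn not by DESeq2). Their list sums overlapped between the techniques: 297 to 397 and 330 to 362 for microglia, and 104 to 176 and 137 to 160 for vascular cells. No marker of excitatory neurons was called in any batch by any of the tools, 8 of 10 had an unadjusted p under 0.05 in batch 1 by limma (44.5% of all genes), and the median there was -0.07. The largest differences there were 0.57 for Nptx1 and 0.50 for Slc17a7. Among these marker lists no gene was at 0 reads in every library of a batch. In nuclei from bulk isolation, more nuclei of a cell type and more RNA per nucleus or from outside the nuclei cannot be told apart, and their part in the differences of the astrocyte genes was not tested.

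**Figure D3:**
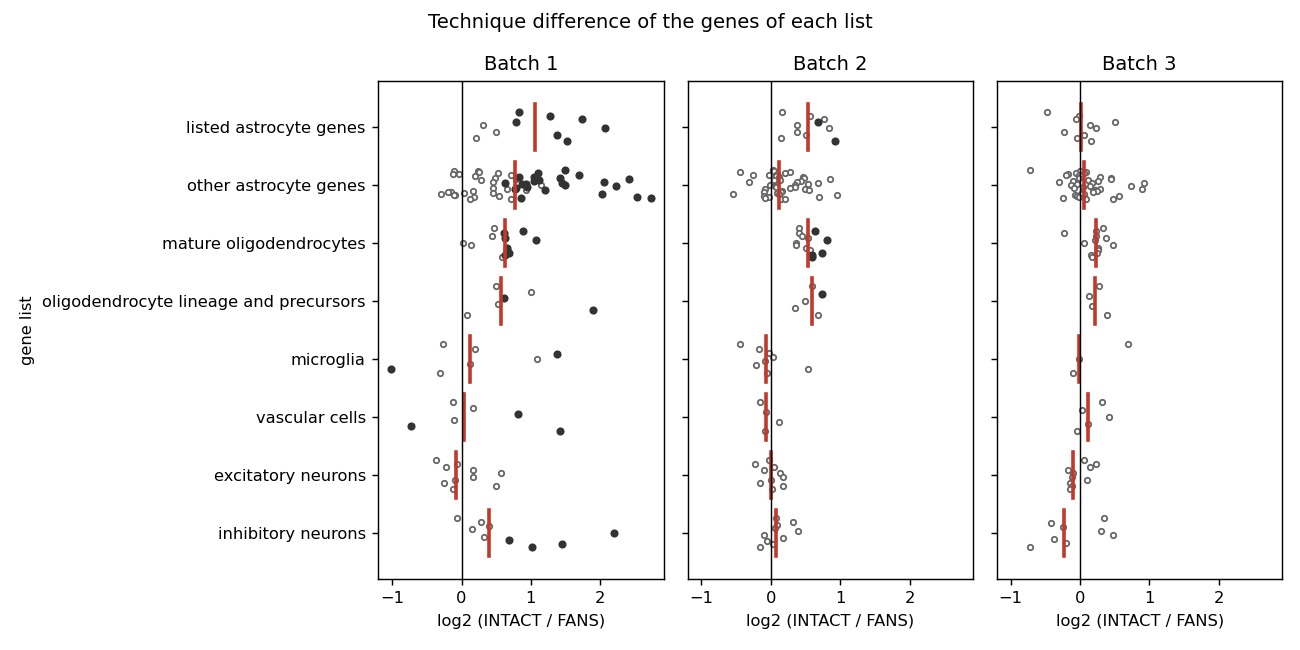
Log2 ratio of INTACT over FANS for every tested gene of 8 lists (circles; filled where called), 1 panel per batch, with the list median in red. The medians of the listed astrocyte genes were 1.06, 0.54 and 0.02, those of the mature oligodendrocyte genes 0.62, 0.53 and 0.23, and those of the excitatory neuron genes -0.07, 0.01 and -0.10.

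The agreement of the 10 genes with each other was measured across the libraries of a batch after the mean of each technique had been subtracted, so that the technique difference itself did not enter. Values are Pearson's r of log2 (normalized count + 1), over 8, 11 and 12 libraries, which share a source and a common scaling within a batch. The median r of the 45 gene pairs was 0.03 in batch 1, with a range from -0.71 to 0.94. It was 0.40 in batch 2 (-0.71 to 0.90) and 0.39 in batch 3 (-0.33 to 0.82), and 23, 36 and 38 of the 45 pairs were above 0. When the technique means were kept, the median r was 0.86 in batch 1, 0.60 in batch 2 and 0.35 in batch 3.

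By r averaged over the batches, Apoe, Gja1 and Aldoc moved together most closely. Within single batches other pairs were higher: Gja1 and Gfap in batch 1 (0.94), Ppap2b and Gja1 in batch 2 (0.90), and Slc1a3 with Slc1a2 and Gja1 with Glul in batch 3 (0.82 each). Apoe and Gja1 had r between 0.69 and 0.89 over the 3 batches, Apoe and Aldoc between 0.56 and 0.74, and Gja1 and Aldoc between 0.52 and 0.77. The glutamate transporters Slc1a3 and Slc1a2 had r between 0.42 and 0.82. Bcan went its own way: its mean r over the batches was below 0 with 8 of the other genes, and its r with the mean of the other 9 genes was 0.00, -0.51 and -0.10. Glul changed between batches, with r of -0.76, 0.66 and 0.84 against the mean of the others. Single libraries carried much of this in batch 3, where FANS replicate 2 was the highest of the 7 FANS libraries for 8 of the 10 genes and INTACT replicate 3 the lowest of the 5 INTACT libraries for 7. Without FANS replicate 2 the median r of batch 3 was 0.23, and without FANS replicate 8 that of batch 2 was 0.24. In batch 1 the median r was -0.18 without FANS replicate 3 and -0.06 without FANS replicate 4.

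The mean of the other astrocyte genes followed the mean of the 10 with r of 0.76, 0.85 and 0.88 in batches 1, 2 and 3. Lists of other cells also followed it in part: mature oligodendrocytes with r of 0.82, -0.03 and 0.55, excitatory neurons with -0.21, 0.34 and 0.45, and inhibitory neurons with 0.75, 0.68 and 0.71. Vascular cells ran against it, with -0.56 and -0.65 in batches 1 and 2, and microglia had 0.54 in batch 2, the batches in which at least 3 of their genes were high enough to be used. The share of reads outside the counted features had r of 0.07, -0.47 and -0.59 with the mean of the 10 genes, and the log2 of the gene reads -0.25, 0.23 and 0.14. Among 11886 other genes with a mean of at least 20 normalized counts in every table, the 5 most like the mean of the 10 included Hsp90ab1, a cytosolic heat shock protein (mean r over the batches 0.93), Syp, a synaptic vesicle protein (0.90), and Ndfip1 and Nsg2 (0.89 each). None of these 4 is on the astrocyte lists. The median r of all these genes with the mean of the 10 was -0.03, -0.04 and -0.02.

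**Figure D4:**
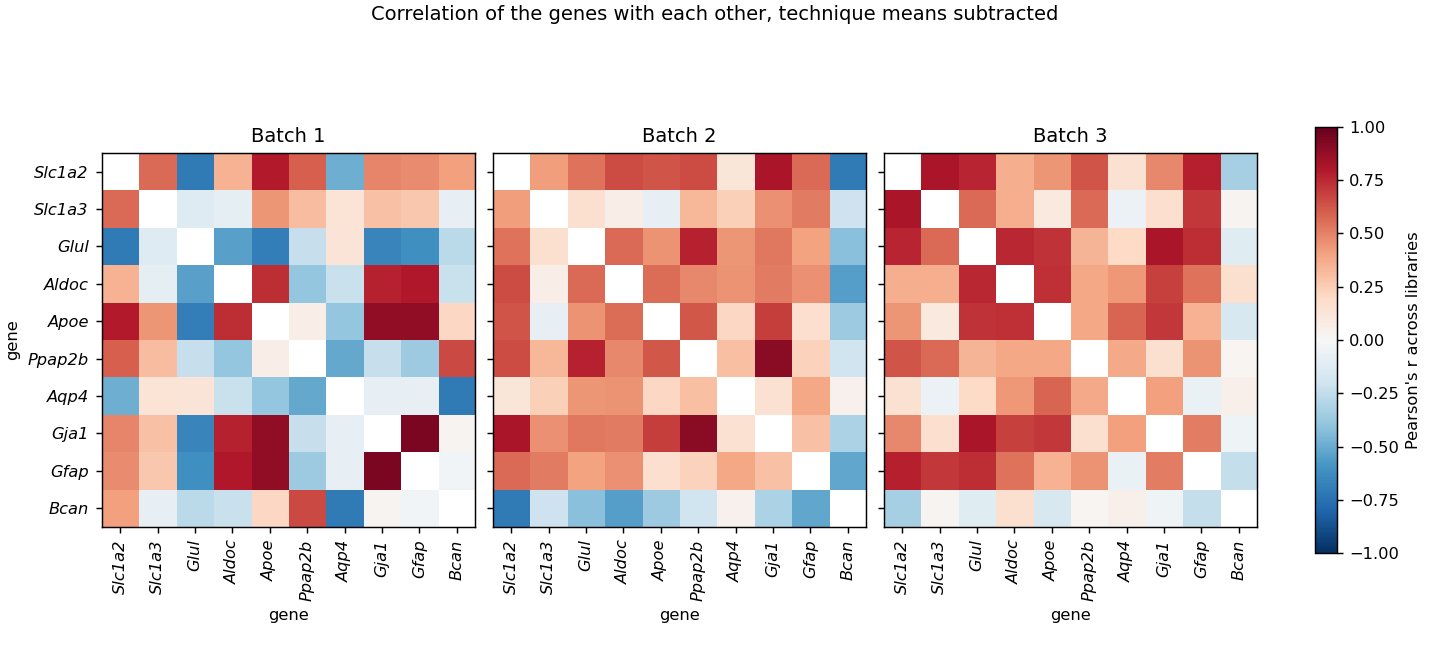
Pearson's r between the astrocyte genes across the libraries of each batch after subtraction of the technique means, red for positive and blue for negative values (8, 11 and 12 libraries). Positive values prevail in batches 2 and 3 (36 and 38 of 45 pairs), with Bcan as the row of mostly negative or low values, whereas in batch 1 Glul is negative with most genes.

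Open chromatin was read from the ATAC-seq peaks that overlapped the 3 kb on either side of an annotated start site (mm10, RefSeq curated transcripts). A peak's height is the fold enrichment that the peak caller gave at its summit, and the sequencing depth behind it is unknown. The FANS lists held 123596 to 130088 peaks and the INTACT lists 99514 to 123895. Of the 10 genes, 5 (Slc1a3, Slc1a2, Ppap2b, Glul and Bcan) had a peak in all 6 libraries, as had 61.7% of the 24258 genes with a placed start site. Aldoc had a peak in all 3 FANS and no INTACT library, a pattern of 1.91% of all genes, and Gja1 in all 3 INTACT and no FANS library, a pattern of 0.181%. Gfap had none in any library, as had 27.4% of genes, and Apoe and Aqp4 had peaks in some libraries.

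At Glul the summit lay 11 bases downstream of the start site in every library, with fold enrichments of 13.4, 12.1 and 12.0 in FANS and 11.5, 10.8 and 12.5 in INTACT. Slc1a2 had 3 peaks that recurred in all 6 libraries. The first had its summit 190 to 213 bases downstream of the upstream start site at position 102658689, with heights of 11.1, 10.8 and 11.7 in FANS and 7.90, 7.52 and 10.2 in INTACT. The others had summits at -2703 to -2675 and at -1545 to -1443 bases from the second start site at position 102706438, inside the gene, where negative distances lie before the start. The FANS and INTACT heights of the first peak did not overlap. Ppap2b had 1 peak in each library, with heights of 9.15, 9.71 and 12.3 in FANS and 6.98, 6.89 and 8.93 in INTACT, which was lower in every INTACT library.

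Aldoc had its FANS peaks on the upstream start site, with summits at -24, 36 and -9 bases and heights of 9.36, 8.88 and 9.99. These heights exceeded those of 66.0% to 70.8% of the peaks in the same lists. Apoe likewise had a peak at its outermost start site in the 3 FANS libraries only (heights of 4.43, 4.31 and 3.22, summits at 70, -3 and 68 bases). A second, weak Apoe peak with summits at -2048 to -1926 bases was present in the 3 FANS libraries (2.49, 3.52 and 3.41) and in INTACT replicates 1 and 3 (4.07 and 3.17).

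Slc1a3 had weak peaks inside the gene, 360 to 1172 bases after the start, of height 3.37 to 5.61 in FANS and 4.68 to 5.13 in INTACT. Bcan had weak peaks around its start, the highest of each library at 5.25, 4.23 and 4.92 in FANS and 4.01, 3.30 and 4.06 in INTACT. The INTACT peaks of Gja1 were weak too, with summits 771 to 1733 bases after the start and heights of 3.56 to 5.71. They were above the heights of only 11.7% to 41.9% of the peaks in their lists. Aqp4 had a single peak of height 3.38 in INTACT replicate 3, 1750 bases after a start site.

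Over all 14977 genes with a peak in all 6 libraries, the highest peak was lower in INTACT for 91.9%, with a median log2 ratio of INTACT over FANS of -0.23. Against this, Slc1a3 (-0.08), Slc1a2 (-0.10) and Glul (-0.11) had a smaller shift than the median gene, and Bcan (-0.34) and Ppap2b (-0.45) a larger one. The summed heights at the start sites were higher in all 3 FANS than in all 3 INTACT libraries for 5 of the 10 genes, Slc1a3, Slc1a2, Apoe, Ppap2b and Aldoc, as for 37.0% of all genes with a placed start site. They were lower in all 3 FANS libraries for Gja1, as for 1.52% of all genes. For Slc1a3 this sum depends on how peaks were split, since FANS replicates 2 and 3 had 2 narrow peaks each where each INTACT library had 1 broad peak, and its highest peaks overlapped between the techniques. The libraries are technical replicates of 1 source. An exact two-sided permutation test of the summed heights gave p = 0.100 for these 6 genes and 0.300 for Glul and Bcan, and since 3 libraries against 3 cannot go below 0.100, nothing is read from it.

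**Figure D5:**
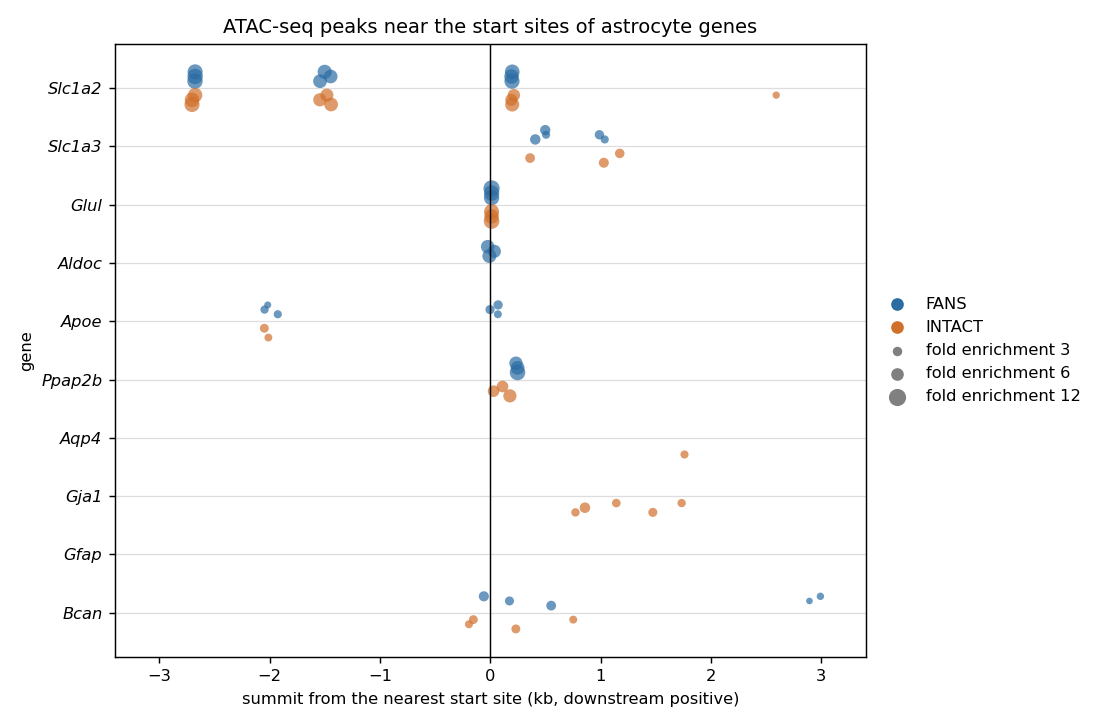
ATAC-seq peaks within 3 kb of a start site of the 10 genes: the horizontal axis is the distance of the summit from the nearest start site in kb, each circle is a peak of 1 library (blue FANS, orange INTACT), and its area follows the fold enrichment. Glul and Slc1a2 hold peaks of both techniques, the start-site peaks of Aldoc and Apoe are from FANS libraries only, and Gja1 holds peaks of INTACT libraries only.

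The 150 bases before the start site are shown for 4 genes, since the peaks on them differed most: Glul with a summit at the start in every library, Aldoc and Apoe with a start-site peak in FANS only, and Gja1 with none on the start itself. Sequences are from RefSeq on GRCm38.p6, which is mm10, and are written 5′ to 3′ on the strand of the gene. Capitals mark matches on either strand to the GC box GGGCGG, the CCAAT box CCAAT or the TATA box TATAAA.
Glul (chr1:153899779-153899928, plus strand): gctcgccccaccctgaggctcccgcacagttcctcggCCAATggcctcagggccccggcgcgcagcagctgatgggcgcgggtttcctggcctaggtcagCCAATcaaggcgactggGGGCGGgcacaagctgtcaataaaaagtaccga
Aldoc (chr11:78322923-78323072, plus strand): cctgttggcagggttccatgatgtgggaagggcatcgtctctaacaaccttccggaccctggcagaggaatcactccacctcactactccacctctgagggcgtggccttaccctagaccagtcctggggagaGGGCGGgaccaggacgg
Apoe (chr7:19699189-19699338, minus strand): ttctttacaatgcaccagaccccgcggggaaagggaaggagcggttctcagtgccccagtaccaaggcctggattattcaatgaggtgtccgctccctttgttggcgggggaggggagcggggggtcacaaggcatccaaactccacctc
Gja1 (chr10:56377150-56377299, plus strand): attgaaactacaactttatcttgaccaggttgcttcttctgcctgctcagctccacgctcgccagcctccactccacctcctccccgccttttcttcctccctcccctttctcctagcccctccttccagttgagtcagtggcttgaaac

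Glul held CCAAT boxes at positions -113 and -50 from the start and a GC box at -33. Aldoc held a GC box at -17 from its upstream start. The windows shown for Gja1 and for the outermost of the 3 Apoe starts held no match to these letters, also when the 250 bases before and 50 bases after the start were searched. The Apoe start at position 19698621 had TATAAA matches at -100 and -96. A match to GGGCGG on either strand was present in 35.7% of all 32851 RefSeq promoters of that length, to CCAAT in 37.4% and to TATAAA in 13.6%. The GC content of the promoter was 64.3% for Glul, 56.3% for Aldoc, 57.7% for Apoe and 47.7% for Gja1, against a median of 52.7% over all promoters. The observed over expected CpG ratio had a median of 0.38 over all promoters. Of the genes with peaks in all libraries, Bcan (0.89), Ppap2b (0.71) and Glul (0.56) were above it and Slc1a3 (0.20) and the inner start of Slc1a2 (0.06) below. Gja1 stood at 0.54, Aldoc at 0.34 and Apoe at 0.40 at their outermost starts, and Gfap, without any peak, at 0.13.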

How the data were processed

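Nuclear RNA of FANS- and INTACT-nuclei was sequenced by the authors, aligned to mm10 (STAR), reduced to unique molecules, counted per gene (HTSeq) and divided by DESeq size factors in each batch; the deposited values are these normalized read counts, a signal in which 1 read was worth 0.661 to 1.53. Low values were whole multiples of 1 read (within 0.1 read) in 100% of cases, so whole read counts were recovered. The rows for reads outside features were left out of totals and tests. Of the RNA libraries labelled in batch 2, 2 had no matching column and were not analysed here. For ATAC-seq the authors called peaks per library (MACS2); the deposited lists give a fold enrichment (a ratio) and −log10 q-values; their score column, which the authors' peak caller derived from q, was not used.

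The 10 genes and all lists were chosen with earlier results of these data known. In each batch limma 3.58.1 (trend, no block, R 4.3.3) was run on log2 (normalized count + 1), for genes whose mean reached 5, with Benjamini-Hochberg adjustment over all genes; a call needs adjusted p under 0.05 and at least 1.5-fold. Alternatives were a pseudocount of 5, no filter or a mean of at least 20, upper quartile scaling, quantile normalization, edgeR 4.0.16 and DESeq2 1.42.0 on whole reads, a replicate block, no fold threshold, and leaving out each library; for agreement, Spearman's rho and technique means kept; for levels, the gene span; for peaks, a 1 kb window, the summit inside the window, and −log10 q as a minimum of 5 or as the height. All 10 genes are named, as are, of the other lists, the genes called in any batch, or else the 2 with the largest change in batch 1 (only 1 filament gene could be tested), and the 5 genes most like the 10 across libraries. Values of a few such genes are not reported here. Start sites are those of RefSeq curated transcripts for 24258 genes; Aqp4 promoter sequence is not reported here. Intervals cover the spread between libraries only.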

Additional observations from a re-analysis of the deposited data

Results flagged for a closer look

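In each group of 4 to 7 libraries, the highest and the lowest value of every gene were compared with the rest by Dixon's gap test. Of 60 groups, 4 held a library that stood apart, where chance alone flags about 1 in 20. Gja1 read 25.7 normalized counts in INTACT replicate 2 of batch 3, against 12.0 to 14.4 in the other 4 INTACT libraries, from 25 reads. Glul read 221 in the same library, against 147 to 163 in the others. Aldoc read 90.2 in INTACT replicate 2 of batch 1, the lowest of its group, against 110 to 114. Gfap read 25.4 in FANS replicate 8 of batch 2, against 3.21 to 10.5 in the other 6, from 30 reads.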

How the results depend on the processing

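In batch 1, 7 genes were called higher under every alternative but 1: without the fold threshold there were 9. In batch 2 the count was 2 (with DESeq2 Apoe and Bcan), or 3 with edgeR or without the fold threshold, and ran from 1 to 3 when each library was left out; in batch 3 it was 0 in each of these, and 1 (Bcan) without the fold threshold. With the replicate number as a block, 7, 0 and 0 genes were called; in batch 2 the log2 fold changes of Slc1a3 and Bcan were then 1.2 and 0.55. Fitted without the block, the same libraries, an alternative chosen after seeing the data, gave 7, 2 and 0, the 2 in batch 2 being Slc1a3 and Apoe. Over all genes the calls of batch 2 (14 higher, 5 lower) were 6 and 2 with DESeq2 and 4 and 0 with the block, and those of batch 3 (2 and 50) were 28 and 84 with the block; the same libraries without it gave 22 and 5 in batch 2 and 17 and 72 in batch 3. The numbers did not pair the libraries: 0 of 4, 0 of 3 and 1 of 5 same-numbered pairs correlated above 0.1, and 0, 0 and 3 libraries did so best with their own number. Medians of the log2 fold changes ran from 0.95 to 1.11, 0.42 to 0.62 and -0.04 to 0.12 without single libraries. In batch 3 the sign of small differences turned when single libraries were left out: Apoe ran from -0.11 to 0.07, Ppap2b from -0.04 to 0.16, Aqp4 from -0.22 to 0.11 and Gfap from -0.02 to 0.31; for Aqp4 edgeR and DESeq2 gave 0.03. The median r between the genes ran from -0.18 to 0.11, 0.24 to 0.46 and 0.23 to 0.49 without single libraries, and was 0.86 and 0.60 in batches 1 and 2 with technique means kept. Per kilobase of gene span, 5 genes lay above the median level in each batch. With −log10 q of at least 5, 1 gene, Aldoc, had peaks in all libraries of 1 technique and none of the other; Gja1 kept peaks in INTACT replicates 2 and 3. The causes were not tested. Aqp4, Gja1 and Gfap rest on few reads.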
